A study of Homo sapiens with 6 samples.

Results

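A set of 3008 H3K27ac peaks lying at the ends of long non-coding RNA (lncRNA) genes was described in human neurons. The set holds 3.82% of the 78694 H3K27ac peaks the authors deposited. A peak belonged to it when it lay on chromosomes 1 to 22 or X, was narrower than 2000 bp, lay within 1 kb of the start or end of a lncRNA gene and lay more than 5 kb from the start and end of every protein-coding gene. Gene intervals were those of RefSeq on GRCh38.p14, which lists 18177 lncRNA genes and 19974 protein-coding genes on these chromosomes. Of 75145 narrow peaks, 7147 lay within 1 kb of a lncRNA gene end, and 4139 of these also lay within 5 kb of a protein-coding gene end and were left out. A further 255 peaks met both distance limits but were too wide.

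Members were chosen by 2 measured values, the position and the width of each peak, so neither is a finding here. The study profiled neurons of KOLF2.1J, an established pluripotent line of human origin, which had been differentiated from neural progenitor cells by a BrainPhys protocol. Chromatin was immunoprecipitated with an antibody to H3K27ac in 2 libraries and with an antibody to CTCF in 2 libraries, and 2 input libraries had no antibody. All 6 libraries came from this one line, with no second genotype or treatment among them, so the peaks describe one line and not neurons of several people. The authors deposited 1 peak list for both H3K27ac replicates and 1 for both CTCF replicates. Neither list gives read counts, so the depth behind a peak is unknown, no spread between replicates can be given, and no difference below could be tested. Intervals on shares are 95% Wilson intervals and cover counting error only.

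H3K27ac is the acetylation of a lysine in the tail of histone H3 and marks active promoters and active enhancers. A lncRNA is transcribed like a messenger RNA but has no long reading frame; some act on transcription or splicing in the nucleus, some serve as precursors of microRNAs or small nucleolar RNAs, and for most no function is known. CTCF is a zinc-finger protein that binds a long DNA motif and, with cohesin, anchors chromatin loops and domain borders. Many lncRNAs start close to the promoter of a coding gene and share its acetylated chromatin. The distance limit was meant to leave peaks that could be assigned to a lncRNA alone.

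Peaks just inside and just outside each limit are given as a description. The widest members were 1999 bp at LOC107986023 (fold enrichment 39.1) and 1993 bp at LOC105369686 and LOC105369687 (8.58), and the narrowest peaks left out for width were 2002 bp at THORLNC (26.4) and 2004 bp at LINC02029 and LINC00881 (33.3). At the lncRNA limit, members 1000 bp from LOC101928334 (fold enrichment 2.07) and MIAT (21.0) stood beside peaks 1001 bp from LOC124903552 (2.70) and LOC105375539 (5.12) that were left out. At the coding limit, members 5006 bp from a coding gene end at LOC101928572 (5.42) and RGMB-AS1 (22.1) stood beside peaks at 5000 bp near TMEM167B-DT (4.66) and 4947 bp near TONSL-AS1 (3.60). Here and below, fold enrichment is the authors' own value for each peak. It is taken as enrichment over background from the layout of the list, which carries no header.

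The promoter sequences of a few members show the contrast that runs through the set. Of the 12 most enriched members, 5 overlapped a promoter window of their lncRNA gene, and those windows were dense in CG dinucleotides, while some lncRNA genes known from neural cells, such as SOX2-OT, had few. Each sequence below is the RefSeq window from 250 bases before to 50 bases after the gene start on GRCh38.p14, read 5′ to 3′ on the strand of the gene, with CG dinucleotides in capitals. FRMD6-AS1 (chr14:51651695-51651994, minus strand) is 77.0% G and C and holds 35 CG dinucleotides. LINC00667 (chr18:5237850-5238149, plus strand) is 72.0% G and C with 38. MIRLET7A1HG (chr9:94166008-94166307, plus strand), host of let-7 microRNAs, is 72.7% G and C with 38. MALAT1 (chr11:65497488-65497787, plus strand), an abundant nuclear RNA, is 73.7% G and C with 37. SOX2-OT (chr3:181056430-181056729, plus strand), whose gene overlaps the neural stem cell gene SOX2, is 38% G and C and holds 3. LINC00632 (chrX:140709509-140709808, plus strand), the gene from which the circular RNA CDR1as is produced, is 42.0% G and C and holds 2. The last pair was chosen as a contrast after its values were seen.
FRMD6-AS1: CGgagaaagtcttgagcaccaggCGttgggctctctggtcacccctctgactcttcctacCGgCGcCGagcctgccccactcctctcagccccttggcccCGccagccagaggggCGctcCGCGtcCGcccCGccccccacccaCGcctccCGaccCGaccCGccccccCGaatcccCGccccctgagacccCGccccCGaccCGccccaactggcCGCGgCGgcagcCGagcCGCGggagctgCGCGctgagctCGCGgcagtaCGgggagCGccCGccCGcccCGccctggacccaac
LINC00667: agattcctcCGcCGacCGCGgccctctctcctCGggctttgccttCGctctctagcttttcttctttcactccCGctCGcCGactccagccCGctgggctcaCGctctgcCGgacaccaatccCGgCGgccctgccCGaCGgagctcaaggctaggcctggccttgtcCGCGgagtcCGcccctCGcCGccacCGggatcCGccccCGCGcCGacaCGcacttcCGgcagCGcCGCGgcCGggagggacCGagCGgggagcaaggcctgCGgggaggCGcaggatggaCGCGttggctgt
MIRLET7A1HG: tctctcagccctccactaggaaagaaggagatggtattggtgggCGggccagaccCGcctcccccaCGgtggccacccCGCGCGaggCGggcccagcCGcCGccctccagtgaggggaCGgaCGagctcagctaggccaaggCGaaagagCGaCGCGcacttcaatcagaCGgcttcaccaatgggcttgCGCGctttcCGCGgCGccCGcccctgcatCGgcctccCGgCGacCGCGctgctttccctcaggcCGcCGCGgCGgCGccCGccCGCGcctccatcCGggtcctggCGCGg
MALAT1: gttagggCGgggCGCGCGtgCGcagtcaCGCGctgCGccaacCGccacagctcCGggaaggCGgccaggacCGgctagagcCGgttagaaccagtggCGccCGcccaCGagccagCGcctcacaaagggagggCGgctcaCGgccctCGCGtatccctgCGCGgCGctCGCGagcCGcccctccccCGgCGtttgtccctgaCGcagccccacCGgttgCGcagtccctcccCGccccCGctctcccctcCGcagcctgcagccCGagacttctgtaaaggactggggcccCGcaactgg
SOX2-OT: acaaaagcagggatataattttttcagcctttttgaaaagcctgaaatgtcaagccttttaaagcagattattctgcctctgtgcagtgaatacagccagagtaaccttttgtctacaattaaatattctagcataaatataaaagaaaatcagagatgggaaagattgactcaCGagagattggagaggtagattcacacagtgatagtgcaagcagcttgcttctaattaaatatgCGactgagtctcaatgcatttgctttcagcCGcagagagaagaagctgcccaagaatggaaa
LINC00632: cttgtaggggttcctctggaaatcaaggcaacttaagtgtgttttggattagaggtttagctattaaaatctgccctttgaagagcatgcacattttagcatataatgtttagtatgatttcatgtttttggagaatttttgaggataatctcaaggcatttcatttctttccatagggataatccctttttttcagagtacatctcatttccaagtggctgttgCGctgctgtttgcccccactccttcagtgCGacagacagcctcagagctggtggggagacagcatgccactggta
The member over the FRMD6-AS1 window had a fold enrichment of 66.7, that over LINC00667 65.1, that over MIRLET7A1HG 51.5 and that over MALAT1 36.8. The members over the SOX2-OT and LINC00632 windows had 5.96 and 11.3. The members covered the LINC00667 and SOX2-OT windows in full and the LINC00632 window in large part. At FRMD6-AS1, MIRLET7A1HG and MALAT1 most of the printed bases lay outside the member.

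Most members were modestly enriched, with a short upper tail. Their fold enrichment ran from 1.80 to 74.3 with a median of 4.88, and the middle range from the lower to the upper quartile was 3.64 to 7.89. The 46196 other narrow peaks that were as far from coding gene ends but not at a lncRNA gene end had a median of 4.22 (3.39 to 5.79). The 17831 narrow peaks within 1 kb of a coding gene end had a median of 8.20 (4.63 to 15.7). Fold enrichment above 20 was found in 124 members (4.12%), against 7.23% of all H3K27ac peaks, 1.03% of the other distant peaks and 17.4% of peaks at coding gene ends. Members were also wider (median 387 bp) than the other distant peaks (298 bp) and narrower than those at coding gene ends (535 bp), and wider peaks have higher fold enrichment in this list. All narrow peaks were split by width into 10 classes of about equal peak number. Within these classes, the median of members divided by that of the other distant peaks was 0.985 to 1.18. This ratio had a median of 1.09 and lay above 1 in 9 of the 10. The same ratio to peaks at coding gene ends was 0.551 to 0.959, with a median of 0.841, and lay below 1 in 10 of 10. The authors' q-value was above 0.05 for 179 members (5.95%), against 6.92% of all peaks.

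**Figure D1:**
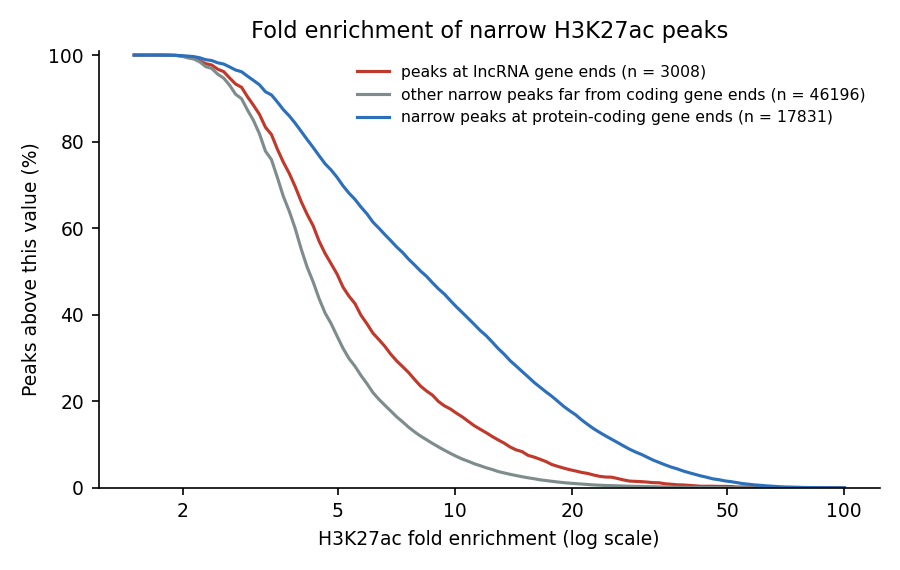
Share of peaks above a given fold enrichment (vertical axis, percent) against fold enrichment (horizontal axis, log scale) for 3008 peaks at lncRNA gene ends (red), 46196 other narrow peaks far from coding gene ends (grey) and 17831 narrow peaks at coding gene ends (blue). The red curve lies between the grey and the blue, with medians of 4.88, 4.22 and 8.20.

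The 12 most enriched members lay on 10 chromosomes, and 10 of them are described here. LINC02453 had the highest, 74.3 (chr12:98502757-98504326, between NEDD1 and TMPO), and its −log10 q was 289. MIA2-AS1 followed with 72.8 (chr14:39266361-39268116, inside MIA2) and FRMD6-AS1 with 66.7 (chr14:51651030-51651743, inside FRMD6). One peak spanned the starts of LINC00526 and LINC00667 and had 65.1 (chr18:5236968-5238928, between AKAIN1 and ZBTB14). LOC124907875 had 60.6 (chr2:113583405-113584122), and LOC105379574 had 58.5 at its other end (chr1:144560764-144561101, between NBPF15 and PPIAL4F, a duplicated part of the genome where reads may belong to several copies). MIRLET7A1HG had 51.5 (chr9:94166223-94166752) and LOC105375782 51.4 (chr8:140464421-140465389). LOC105374040 had 50.1 (chr3:111859086-111860538, inside PHLDB2) and FAM13B-AS1 with LOC124901077 had 47.1 (chr5:138031950-138033914, inside FAM13B). Of these 12 peaks, 5 lay inside a coding gene, against 36.2% of members and 63.9% of all H3K27ac peaks. A CTCF peak overlapped 4 of the 12, against 17.4% of members and 16.2% of all H3K27ac peaks. LOC names are loci without an assigned symbol.

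Distance to the ends of a gene interval did not keep away every coding promoter, because a long coding gene can have alternative starts inside its interval. In the RefSeq promoter table, which lists several starts for many genes, 237 members (7.88%) lay within 1 kb of a protein-coding start, all of them inside that coding gene. Their median fold enrichment was 7.51, and 35.0% (29.2 to 41.3) overlapped a CTCF peak. Outside chromosome 8, the 2591 members more than 5 kb from any such start had a median of 4.83 and 16.2% (14.9 to 17.7) overlapped CTCF. Among the 12 most enriched members, those at LOC105374040 (a start of PHLDB2) and at FAM13B-AS1 were of this kind. PFKFB3-AS1 (40.6), LOC107986023 (39.1, at ATP2C1), EPC1-AS1 (35.6) and KANSL1-AS1 (27.6) were others. For these peaks acetylation of a coding promoter and of a lncRNA promoter cannot be told apart. The promoter table has no rows for chromosome 8, whose 139 members could not be checked.

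Acetylation lay at the start of the lncRNA gene more often than at its other end. The strand was known for 1421 of the 2046 lncRNA genes with a member. Of 2041 members at genes of known strand, 1464 lay at a start, or 71.7% (69.7 to 73.6), and 577 at the other end only. A member at the start of a gene and at the other end of a further gene was counted at a start. Another 122 members reached both ends of a short gene, and for 845 the strand was unknown. Members at a start had a median fold enrichment of 5.05 and those at the other end 4.50, and 77 of the former but 7 of the latter exceeded 20. Among 5209 lncRNA genes of at least 5 kb whose ends were both free of coding gene ends, 581 had a member at the start alone, 164 at the other end alone and 59 at both. A member was thus found at the start of 12.3% of these genes and at the other end of 4.28%.

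Summits around starts were arranged in a way that summits around the other end were not. A summit is the highest position of a peak. Over 1526 pairs of a member and a lncRNA start, the median summit lay 36 bp into the gene, with quartiles of −391 and 306.5 bp, and 51.6% (49.1 to 54.1) lay downstream. In bins of 100 bp, the bin just before the start held 62 summits and the one from 100 to 200 bp after it held 190. On the other side of the low bin, 132 summits lay 200 to 300 bp before the start. The same 3 bins around the other end held 26, 32 and 28 summits of 596.

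**Figure D2:**
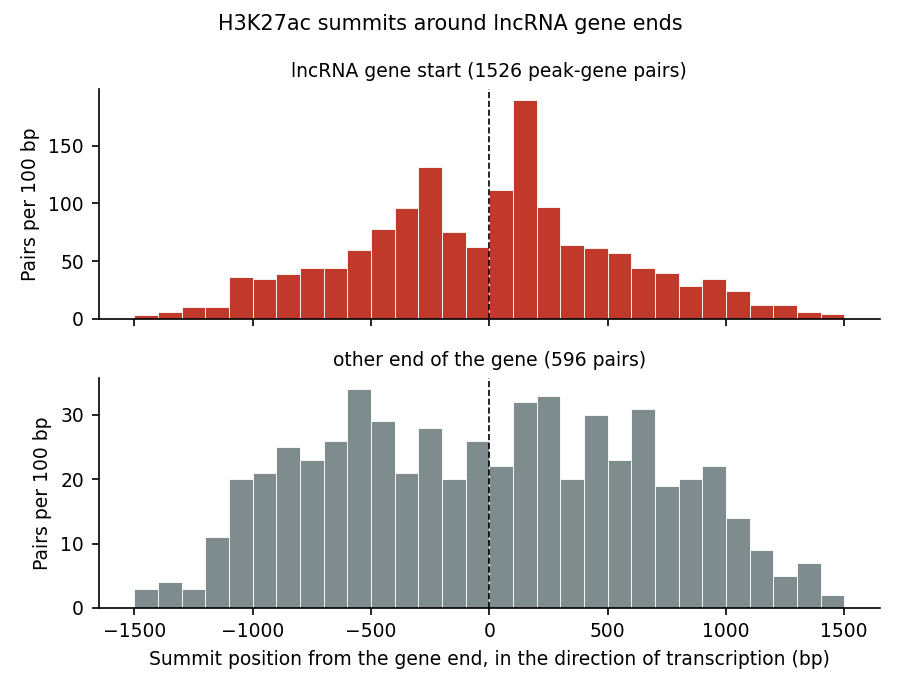
Number of member and gene pairs per 100 bp (vertical axes, on different scales) by the position of the summit from the lncRNA gene start (upper panel) or its other end (lower panel), in the direction of transcription (horizontal axis, bp, dashed line at the end itself). Around starts the count is 62 just before the start and 190 from 100 to 200 bp after it, while around the other end no such dip between 2 high bins is seen.

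Peaks that contained the gene end itself were the most enriched. The 792 members (26.3%) with an end inside the peak had a median fold enrichment of 7.27, the 1407 at 1 to 500 bp 4.75 and the 809 at more than 500 and up to 1000 bp 4.30. CTCF overlap in these classes was 22.2%, 19.3% and 9.52%. A wide peak contains a given position more easily than a narrow one. Members in the narrowest width class had a median of 3.52 and 11.2% CTCF overlap, and those in the widest 11.8 and 29.0%. Width was not matched between the distance classes, and its part was not tested. The median gap from a member to the next H3K27ac peak was 0.244 kb, close to the 0.249 kb of all H3K27ac peaks; it was 0.306 kb for the other distant peaks and 0.182 kb for peaks at coding gene ends.

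Some lncRNA genes had several members. One member was found at 1184 genes, 2 at 645 and 3 or more at 217. LOC105378131 had 6 (chr6:167574834-167588738, between TTLL2 and AFDN), with fold enrichment from 2.49 to 9.05 and 3 at each end. LOC105376426, inside FRMD4A, also had 6 (2.87 to 5.05). LINC02399 had 5 (3.45 to 9.95) and ZNF536-AS1, inside the zinc-finger gene ZNF536, had 5 (3.59 to 6.80). MALAT1 (chr11:65497738-65506516) had 4: that at its start had 36.8 and the 3 at its other end had 3.57, 3.70 and 4.13. A 3525 bp peak of 60.2 across the MALAT1 start was not a member because of its width. In all, 38 genes had 4, MALAT1 and LINC01409 having the strongest of them. LINC01409 had 4 at its start (21.2, 6.84, 3.57 and 3.24), 3 of which overlapped CTCF.

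Starts of lncRNA genes on opposite strands both lay within 1 kb of the same peak in 67 members, and in 11 of these both starts lay inside it. The LINC00526 and LINC00667 starts lay 71 bp apart inside the peak of 65.1, and LINC03015 and LINC03014 280 bp apart inside one of 40.1. The starts of LINC02226 and MIR4458HG lay 123 bp apart, and that of MIR4458HG alone was inside the peak of 31.8. In these 3 pairs the genes are transcribed away from each other.

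The share of lncRNA genes with a member differed by the kind of gene the name describes. A gene was called eligible, or open to the rule, when an end lay more than 5 kb from coding gene ends. The rule sets this limit on the peak, so a few of the 2046 genes with a member were not eligible. Of 15834 eligible genes, 2036 (12.9%) had a member. Over all lncRNA genes, 27.1% had an H3K27ac peak of any kind within 1 kb of an end. Small nucleolar RNA host genes had the highest share, 6 of 15, with an interval of 19.8% to 64.3%. MicroRNA host genes followed with 20 of 73, or 27.4% (18.5 to 38.6). Antisense genes had 268 of 1490, or 17.99% (16.1 to 20.02), and LINC genes 366 of 2223, or 16.5% (15.0 to 18.1). LOC genes had 1232 of 11068, or 11.1% (10.6 to 11.7). Divergent transcripts, named for starting beside a coding promoter, had 23 of 325, or 7.08% (4.76 to 10.4). The distance limit left 55.0% of them in reach of the rule. A single free end made a gene eligible, so those with a start beside a coding promoter were largely limited to members at the other end. Their share is thus not comparable with that of the other kinds.

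LncRNA genes known from neural cells were mostly acetylated, but many by peaks that were no members. The list had 29 names, of which 25 were lncRNA genes in the table. A peak of any kind lay within 1 kb of an end in 21, or 84.0% (65.3 to 93.6), against 27.1% of all lncRNA genes, and 11 of these had a member, with a median of 13.1 for the most enriched member of each gene. The 27.1% is no matched background, because 12316 of all 18177 lncRNA genes have LOC names, which had members less often than most other kinds. The gene lists were also chosen with earlier results of these data known. MIAT, a nuclear RNA abundant in neurons, had members of 21.0 (chr22:26647429-26648962), 5.59 and 5.15. The host genes of miR-9, a microRNA of neural differentiation, were MIR9-1HG with 17.7, 6.52 and 4.74 (chr1:156428751-156430345, overlapping CTCF), MIR9-3HG with 15.8, 15.2 and 5.42, and MIR9-2HG, listed as LINC00461, with 7.04 and 3.51 at its other end. The imprinted genes PEG13 and KCNQ1OT1 had 17.3 and 14.4. DGCR5 had 13.1, LINC00632 had 11.3 and 10.9, and LINC-PINT had 5.82 at its other end. SOX2-OT had one member of 5.96 (chr3:181056307-181057052). SOX1-OT had 5.82, 4.82 and 3.99, beside a 3970 bp peak of 37.0 too wide for the rule.

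The strongest peaks at RMST (21.3), MIR124-1HG (18.3) and MIR124-2HG (29.6) were 4086, 3699 and 8361 bp wide and so no members. RMST is a lncRNA of neurogenesis and miR-124 is a microRNA abundant in neurons. Nearness to a coding gene end kept out 7 more: CRNDE (47.8), PANTR1 (29.5), CASC15 (21.7), SIX3-AS1 (14.5), DLX6-AS1 (7.59), MIR137HG (5.42) and LINC01551 (4.47). The part of the nearby coding gene in the peaks at these 7 was not tested. MEG3, PAX6-AS1, OTX2-AS1 and SNHG14 had no peak within 1 kb of an end.

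Of the genes open to the rule, 81.2% of the 16 widely expressed ones, 45.8% of the 24 neural ones and 17.6% of the 17 of other cell types had a member, against 12.9% of all eligible lncRNA genes. Of 25 widely expressed lncRNA genes, 23, or 92.0% (75.03 to 97.8), had a peak at an end and 13 had a member, with a median of 16.8. LINC00667 had 65.1 and MALAT1 36.8. JPX, an X-linked lncRNA, had 22.5 and 8.32, EPB41L4A-AS1 22.4, NORAD, an RNA that binds Pumilio proteins, 22.03 and 12.99, and MIR17HG 22.02 and 7.63. SNHG5 had 16.8 and NEAT1, the scaffold of paraspeckles, had 12.3 (chr11:65421262-65423235). FTX (8.31), DANCR (8.19), SNHG29 (7.59), MIR99AHG (7.24) and SNHG15 (7.23) were lower. FTX and MIR99AHG also had wide peaks of 49.4 and 18.1 at their starts. CYTOR and MIR100HG had no peak at an end. Of 19 lncRNA genes known from other cell types, such as HULC of liver, HOTAIR of posterior tissues and LINC-ROR of pluripotent cells, 15 had no peak at an end. The 4 with one, 21.1% (8.51 to 43.3), are a share near the 27.1% of all lncRNA genes. BANCR, named from melanoma, had members of 13.4 and 12.1, and LINC01554 had 2.91.

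**Figure D3:**
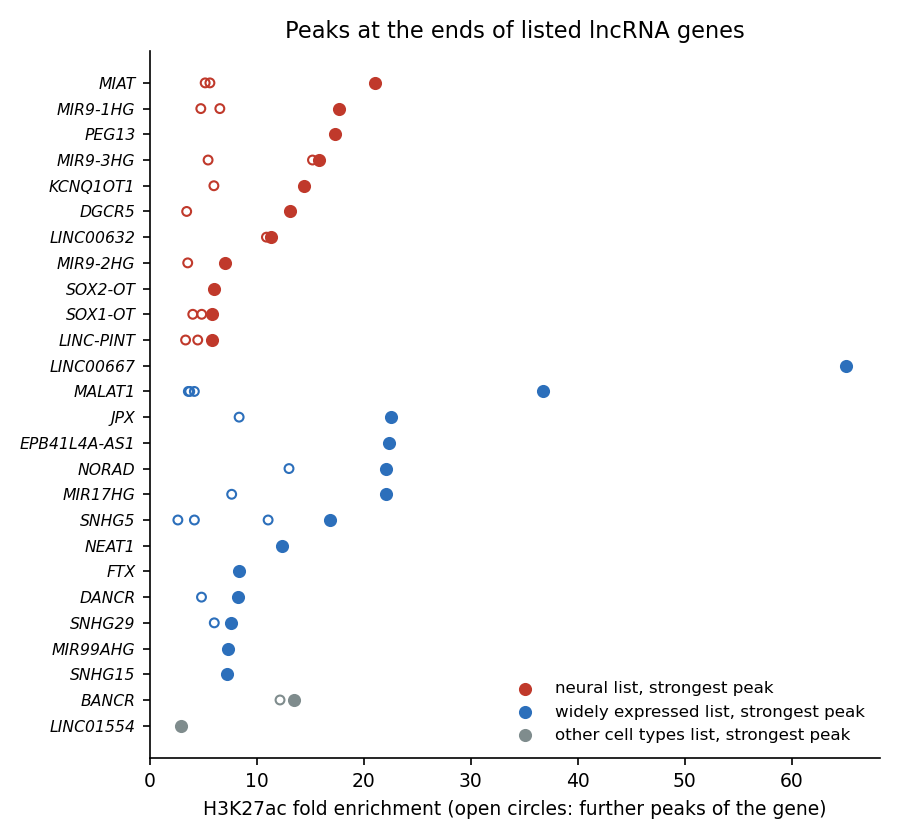
Fold enrichment (horizontal axis) of each member at lncRNA genes of the 3 lists (rows), with the strongest member of a gene as a filled point and its further members as open circles. The 11 neural genes (red) reach 21.0 at MIAT, the 13 widely expressed genes (blue) reach 65.1 at LINC00667 and the 2 genes shown of other cell types (grey) reach 13.4 at BANCR.

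MicroRNA hosts with a member include families that share a seed, bases 2 to 8 of the mature microRNA, which pairs with its targets. The 20 hosts with a member hold 64 mature microRNAs with 49 seeds, on the strand of the host where it is known. Of these seeds, 8 occur in more than 1 host. Seeds were not counted for hosts without a member, so the sharing is a description and not a trait particular to these hosts. Below, sequences are the RefSeq mature microRNAs, 5′ to 3′, with the seed in capitals, shown because their hosts carry the seed families described here. The let-7 seed lies in MIRLET7A1HG (let-7a, let-7f and let-7d), MIR4458HG (miR-4458) and MIR99AHG (let-7c). The miR-9 seed lies in the 3 miR-9 hosts named above. The miR-17 seed lies in MIR17HG (miR-17 and miR-20a) and MIR106AHG (miR-20b and miR-106a).
hsa-let-7a-5p: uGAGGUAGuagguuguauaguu
hsa-let-7f-5p: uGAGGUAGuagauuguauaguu
hsa-let-7d-5p: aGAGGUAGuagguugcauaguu
hsa-miR-4458: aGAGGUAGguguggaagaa
hsa-let-7c-5p: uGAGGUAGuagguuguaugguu
hsa-miR-9-5p: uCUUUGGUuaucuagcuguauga
hsa-miR-17-5p: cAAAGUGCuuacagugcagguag
hsa-miR-20a-5p: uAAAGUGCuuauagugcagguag
hsa-miR-20b-5p: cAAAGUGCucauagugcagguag
hsa-miR-106a-5p: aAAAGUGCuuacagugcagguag
The let-7 seed hosts had fold enrichments of 51.5, 31.8 and 7.24. The miR-9 seed hosts had 17.7, 15.8 and 7.04, and the miR-17 seed hosts had 22.02 and 10.9.

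In the 20 microRNA hosts, the strongest member lay at the start in 15, at the other end in 3 and at an unknown end in 2. The median fold enrichment of the strongest members was 8.21, from 2.16 at MIR4307HG to 51.5, and 2 overlapped CTCF. MIR550A3HG had 15.3, MIR181A1HG 13.9, MIR23AHG 9.40 and MIR34AHG 7.60. MIR122HG, the host of the liver microRNA miR-122, had 6.13. The q-value of 1 host's peak was above 0.05.

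CTCF peaks overlapped members about as often as all H3K27ac peaks. An overlap of at least 1 bp was found in 524 members, or 17.4% (16.1 to 18.8), against 16.2% of all H3K27ac peaks. The share of members was 10.8% without CTCF peaks of 800 bp, 8.14% with the CTCF summit inside the member and 2.86% with summits within 100 bp. An overlap of at least 1 bp was found in 8.21% (7.97 to 8.47) of the other distant peaks and in 31.5% (30.8 to 32.2) of peaks at coding gene ends. In each of the 10 width classes the share of members exceeded that of the other distant peaks, by 6.01 to 12.4 percentage points, and lay below that of peaks at coding gene ends. In the narrowest class, 120 to 147 bp, the 3 shares were 11.2%, 5.08% and 17.03%, and in the widest, 1123 to 1999 bp, 29.0%, 16.6% and 46.7%.

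**Figure D4:**
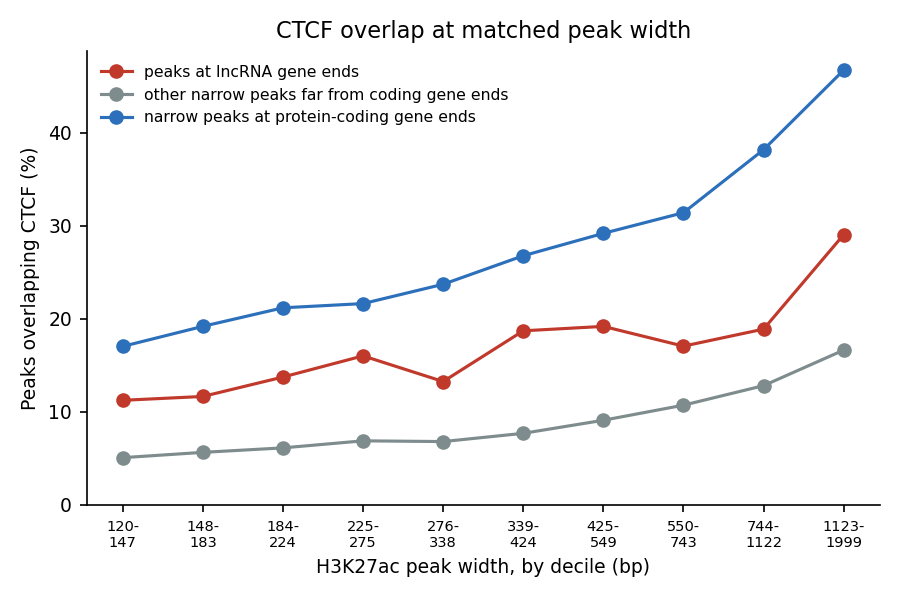
Share of H3K27ac peaks overlapping a CTCF peak (vertical axis, percent, without error bars) by class of peak width (horizontal axis, bp) for members (red), other narrow distant peaks (grey) and peaks at coding gene ends (blue). Members lie between the other 2 in every class, at 11.2% in the narrowest and 29.0% in the widest.

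Members with CTCF were more enriched in H3K27ac, with a median of 6.28 against 4.73 without. In 4 classes of rising fold enrichment the CTCF share was 10.2% (8.25 to 12.6), 14.1%, 18.1% and 27.3% (24.2 to 30.6). Peak width rose over the same classes, with medians of 218, 271.5, 451.5 and 931.5 bp, and members with and without CTCF had median widths of 478 and 366 bp; its part in the share was not tested. At starts it was 22.2% (20.1 to 24.4) and at the other end 9.88% (7.70 to 12.6). The CTCF peaks at members were of ordinary strength, with a median signal of 91.1 against 91.0 over all CTCF peaks. The signal is the authors' own value, on a scale not stated. The strongest CTCF peak overlapping a member, 432, met a weak narrow one at LOC124905093 (chr22:25448163-25448290, fold enrichment 3.93). LOC124903549 had 397 (chr15:89358763-89360503, fold enrichment 12.1, between POLG and RHCG), EPB41L4A-AS1 396, LOC283731 389 (inside ISLR2) and LOC105371573 380 (inside B9D1).

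The CTCF motif was rare in these promoters. Its core of 12 letters, searched on both strands, was found in 23 of 716 lncRNA promoter windows overlapped by a member, or 3.21%, against 2.41% of all 34961 windows in the table. Of the members over those 23 windows, 15 overlapped a CTCF peak, or 65.2% (44.9 to 81.2), against 181 of 693 without the core, or 26.1% (22.99 to 29.5). The match itself lay inside a CTCF peak in 13 of the 23 windows, or 56.5% (36.8 to 74.4). The windows of LINC01409 and LOC100288069 overlap and hold the same match, which is counted in both. The strongest member over both windows (chr1:778443-778661, fold enrichment 21.2) ends before that match. The match lies in a weaker member (chr1:778750-778980, 3.57). The intervals treat such windows as separate. Of the 15, 4 that cover a range of CTCF signals were chosen after their values were seen and are shown with 10 bases on each side, the match in capitals, on the strand of the gene. They lie at LOC124903549 (chr15:89358755-89358786, minus strand), LOC284600 (chr1:904761-904792, plus strand), EPC1-AS1 (chr10:32347375-32347406, plus strand) and LINC01409 (chr1:778795-778826, plus strand).
LOC124903549: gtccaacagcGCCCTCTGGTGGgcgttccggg
LOC284600: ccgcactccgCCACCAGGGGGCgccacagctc
EPC1-AS1: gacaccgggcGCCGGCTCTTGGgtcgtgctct
LINC01409: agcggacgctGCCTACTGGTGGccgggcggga
The CTCF peaks overlapping these members had signals of 397, 302, 268 and 134, and the match lay inside a CTCF peak at all but EPC1-AS1. A match is a description of letters and not a shown binding site.

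Promoters under members were far more often CpG-rich than lncRNA promoters without acetylation. A window was called CpG-rich when more than 50% of its bases were G or C and the observed over expected CG ratio was above 0.6. This held for 271 of the 716 windows, or 37.8% (34.4 to 41.5), for 6.80% (6.23 to 7.42) of 6926 lncRNA windows far from coding gene ends with no H3K27ac peak, and for 59.9% of coding windows. Over all windows it was 46.9%. The CpG-rich windows were overlapped, by at least 1 bp, by members with a median fold enrichment of 10.6 (6.16 to 19.2). The others were overlapped by members of 5.59 (3.79 to 9.09). In 5 classes of rising fold enrichment, the CpG-rich share was 16.0% (10.9 to 22.8), 23.8%, 37.9%, 39.7% and, from 14.4 to 66.7, 72.0% (64.2 to 78.7). CTCF overlap was 39.9% (34.2 to 45.8) over CpG-rich windows and 19.8% (16.3 to 23.7) over the others. Without members within 5 kb of a coding start, 198 of 617 windows were CpG-rich, or 32.1% (28.5 to 35.9), with medians of 9.53 and 5.41.

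**Figure D5:**
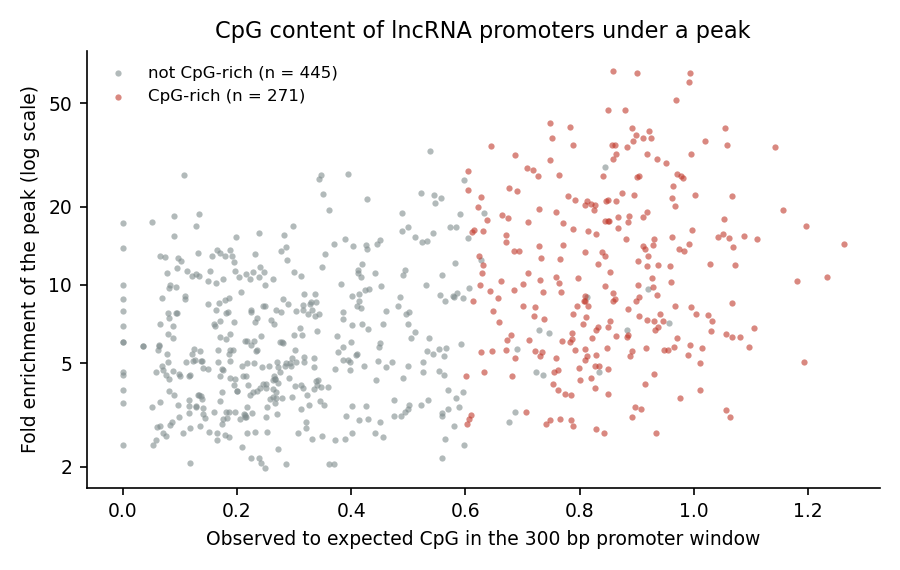
Fold enrichment of the member (vertical axis, log scale) against the observed over expected CG ratio of the 300 bp promoter window under it (horizontal axis), 1 point per window, for 271 CpG-rich windows (red) and 445 others (grey). Most points above 20 are red (64 of the CpG-rich windows and 13 of the others), while points below 5 occur in both.

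Other motifs in the member windows were scattered, and the RFX motif had the highest ratio to its share in all windows, while AP-1 had the largest difference in percentage points. RFX factors are known for activating genes of cilia. The motif of 14 letters was found on either strand in 11 windows (1.54%, 0.860 to 2.73) against 0.363% of all windows and 0.173% of lncRNA windows without acetylation. The examples, chosen after their values were seen, are LOC107986749 (chr7:138161714-138161747, plus strand), LINC02690 (chr11:45751636-45751669, minus strand) and LOC105372665 (chr20:52619274-52619307, minus strand), with the match in capitals and 10 bases on each side.
LOC107986749: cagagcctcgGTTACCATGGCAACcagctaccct
LINC02690: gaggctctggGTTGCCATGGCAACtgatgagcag
LOC105372665: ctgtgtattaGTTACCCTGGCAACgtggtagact
The members overlapping these windows had fold enrichments of 11.7, 11.3 and 7.73. That of LOC105372665 (chr20:52619354-52620013) overlaps the window but not the printed match. The ETS motif CCGGAAGT, of housekeeping promoters, lay in 24 windows (3.35% against 4.14% of all) with a median fold enrichment of 12.8, against 6.84 for windows without it. The NRF1 motif lay in 10 (1.40% against 1.24%), the cAMP response element TGACGTCA in 18 (2.51% against 1.85%) and the neural E-box CAGATGG in 27 (3.77% against 4.34%). Overlapping windows of LINC00526 and LINC00667 share an ETS match, and those of LINC02779 and LOC105372928 share a cAMP response element. Each shared match is counted in both windows. The AP-1 motif TGANTCA lay in 76 (10.6% against 7.68%) and in 12.6% of lncRNA windows without acetylation. The YY1 motif lay in 2 windows (0.279% against 0.852%), the REST motif in 1 (0.140% against 0.0515%) and a pair of facing SOX motifs in none (0.0114% of all). All motifs were searched on both strands, and no motif holds the letters of another; a missing match says only that these letters are not in the window.

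The rule set where members could lie, so their position in coding genes is a description. Inside a coding gene interval were 1089 members, or 36.2% (34.5 to 37.9), against 27.1% (26.6 to 27.7) of the 28542 lncRNA gene ends open to the rule and 63.9% of all H3K27ac peaks. Median fold enrichment was 4.91 inside and 4.88 outside, and the CTCF share was 16.6% (14.5 to 18.9) and 17.9% (16.2 to 19.7). The inside values include all 278 members within 5 kb of a listed coding start, with a median of 6.98 and a CTCF share of 30.9% (25.8 to 36.6). Of the 2730 others, with chromosome 8 unchecked, 811 lay inside. The part of coding promoters in the inside values was not tested. Where the lncRNA start with a member lay inside 1 coding gene, the lncRNA ran on the opposite strand in 261 cases and on the same strand in 24, or 91.6% opposite (87.8 to 94.3). Among eligible genes without a member it did so in 88.4% (86.9 to 89.7).

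By chromosome, the share of eligible genes with a member was lowest on chromosome 21, 6.53% (4.22 to 9.97), and chromosome 4, 7.65%, and highest on chromosome 17, 19.1% (16.0 to 22.5). CTCF overlap was highest on chromosomes 19 (29.9%) and 22 (29.3%) and lowest on X (11.4%). Within 1 Mb of MAPT, which encodes tau, lay 4 members: that of KANSL1-AS1, 298 kb away (chr17:46193576-46194943, fold enrichment 27.6, CTCF signal 83.3), FMNL1-DT with 4.14 and 2 at LOC107987243 with 6.62 and 7.20.

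The cell label was checked against marker genes of several cell types. A peak lay within 1 kb of an end of 9 of 10 neuronal marker genes, against 62.5% of all coding genes. The strongest peaks of these 9 had a median of 17.6, from 3.91 at RBFOX3 to 28.8 at TUBB3, and ELAVL4 had none. The value at RBFOX3 lay below the median of all H3K27ac peaks, 4.74. Of 6 progenitor markers 5 had one, with a median of 35.4, MSI1 at 50.3, NES at 35.3, HES1 at 12.6 and PAX6 without one. Of 3 astrocyte markers GFAP had one (9.67). The pluripotency genes POU5F1 and NANOG had none, while LIN28A had 4.32 and DPPA4 3.42. MYH7 of muscle had 13.9 and APOA1 of liver 4.62, and 3 blood markers had none. Neuronal and progenitor markers were both acetylated, with the higher median at the progenitor markers. Their part in the peaks at lncRNA genes was not tested.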

How the data were processed

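H3K27ac and CTCF chromatin immunoprecipitation and input were sequenced, with 2 libraries each, per the labels. The submitters' processing notes name cutadapt 1.16 and build hg38; the aligner, peak caller and settings are not given in the sources used here. The authors deposited 1 list of 10 columns without a header per antibody, covering both replicates; the list of CTCF peaks has been named for the irreproducible discovery rate. In the H3K27ac list the deposited ratio was read as fold enrichment, and in the CTCF list the deposited signal has no stated scale. The −log10 q-values deposited for each peak were taken as given. No read counts were used, and 0 columns belonged to other samples.

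Members and gene lists were chosen with earlier results of these data known. Peaks were joined to RefSeq gene intervals, promoter windows and microRNAs on GRCh38.p14, the same build, with Python 3.11.15, pandas 2.3.3, numpy 2.4.6, SciPy 1.17.1 and matplotlib 3.10.9. Gene strand came from the promoter table, which matched 11384 lncRNA genes and has no rows for chromosome 8. Sequence features were planned for windows around summits; with no genome sequence used here, promoter windows took their place. CpG and motif results cover the 716 lncRNA promoter windows that a member overlaps by at least 1 bp. Overlap with CTCF also needed at least 1 bp. The peak code was tested on simulated intervals. Named were the 12 most enriched members, 6 genes with most members (ties at 4 taken by fold enrichment), the 5 members with the highest CTCF signal, members at listed genes or within 1 Mb of MAPT, and the nearest 2 peaks on each side of each limit; microRNA hosts, motif examples and the rest were chosen after their values were seen. A few items that this rule names are not reported here.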

Additional observations from a re-analysis of the deposited data

How the results depend on the processing

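No paired analysis was possible because each list covers both replicates; for the same reason neither replicate could be left out. The number of members, 3008, stayed within 1.5 times under every alternative tried, from 2199 to 4438. The CTCF share of members, of other distant peaks and of peaks at coding gene ends was 2.86%, 1.17% and 5.42% with summits within 100 bp, 8.14%, 3.09% and 17.4% with a CTCF summit inside the peak, 10.8%, 5.17% and 19.5% without CTCF peaks of 800 bp, and 8.74%, 4.26% and 14.9% with the 50% strongest CTCF peaks. The order of the 3 sets was the same in each. The other distant peaks gave 8.47% with q under 0.05, and peaks at coding gene ends 27.9% at widths of 300 to 600 bp. The median fold enrichment of members was 4.66 over width classes, 5.10 with q under 0.05 and 5.28 within 500 bp of a lncRNA end. Its ratio to the other distant peaks was 1.10 at widths of 300 to 600 bp, 1.09 over width classes and 1.25 within 500 bp, and its ratio to peaks at coding gene ends was 0.736, 0.841 and 0.560. The start share was 74.6% within 500 bp and 74.4% without LOC names. The share of eligible genes with a member was 10.5% within 500 bp, 12.3% with q under 0.05, 16.9% without LOC names and 12.1% for genes of at least 5 kb. The CpG-rich share was 42.2% in 100 bp windows. Leaving out peaks within 5 kb of a coding start, an alternative chosen after seeing the data that kept chromosome 8, gave CTCF shares of 16.0% for members and 7.66% for other distant peaks, a start share of 69.5%, an eligible share of 11.8% and a CpG-rich share of 32.1%. The cause of these moves was not tested. Read depth is unknown, so weak peaks cannot be weighed by counts.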
